A study of Mus musculus with 16 samples.

Results

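The 33 genes described here encode factors that make ribosomes in the nucleolus. They were chosen as a named set of pathway genes, and each was read from 1 probe set, the brightest over all arrays among those with a single gene symbol. All 33 were found among the 18193 genes so named, and all 33 passed the level minimum (log2 6 on at least 2 arrays) that left 13007 genes for testing. Ribosome production starts with transcription of the ribosomal RNA (rRNA) precursor by RNA polymerase I. Small nucleolar ribonucleoprotein particles (snoRNPs) then modify the precursor: box C/D particles methylate it and box H/ACA particles convert uridines to pseudouridines. Processing and assembly factors cut it and fold it with ribosomal proteins into the small (40S) and the large (60S) subunit. When a naive T cell is activated it grows before it divides, and these genes are known to be switched on at that step.

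Expression in mouse CD4+ T cells was read on 16 Affymetrix arrays, 2 for each of 8 groups. Sorted naive cells (CD44- CD62L+) were stimulated through CD3 and CD28 with antibodies over 3 days, in medium alone, with IL-6 (10 ug/ml), with TGFb (2.5 ug/ml) or with both, at the doses that the labels state. STAT3-deficient cells had the genotype CD4 Cre; STAT3floxed, and the cells called WT had the genotype STAT3floxed, so that both carry the floxed allele. Cre under CD4 control acts in the T cell lineage from the thymus on, and STAT3 is the transcription factor through which IL-6 acts. Every level below is log2 of the deposited intensity and every change is a difference of such levels. A gene was called changed at a limma p under 0.05 after Benjamini-Hochberg adjustment over the 13007 genes. Separate animals or cultures are not named in the labels, and the p-values cover no more than the spread between arrays, which here includes a difference in sex-linked genes between the 2 arrays of every group. In bulk RNA, fewer cells with a high level and less RNA per cell cannot be told apart.

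Several facts about the arrays bear on the results. Stat3 read 8.40 to 10.46 on the STAT3-deficient and 10.22 to 12.18 on the WT arrays, and these ranges overlap because the WT medium array of replicate 1 (10.22) lay under the STAT3-deficient TGFb array of replicate 2 (10.46). Smad7, a feedback gene of TGFb signalling, read 7.63 to 8.68 on the 8 arrays without TGFb and 9.26 to 9.97 on the 8 with it. Foxp3 gave no such split. It read 4.39 to 5.25 on the arrays without TGFb and 7.35 to 9.98 on the STAT3-deficient arrays with it. On replicates 1 and 2 of the WT cells it read 4.81 and 9.99 with TGFb, and 4.81 and 7.90 with both cytokines. The part of this replicate difference in the results below was not tested. The STAT3-deficient TGFb array of replicate 1 stood apart. It read Il17a, the cytokine gene of Th17 cells, at 9.55, whereas the other STAT3-deficient arrays lay between 6.04 and 6.51, and results that rest on it were recomputed without it. An earlier description of these data also doubted the STAT3-deficient array of replicate 1 with both cytokines, which read Il17a at 6.29, within that range. The 2 are called the arrays of doubt, and without them each of these groups holds 1 array, assumed to vary like the others. All replicate 1 arrays had high Xist and all replicate 2 arrays low Xist (11.91 to 13.21 against 6.64 to 7.60), and the Y-linked gene Eif2s3y read 3.81 to 4.52 on the former and 9.84 to 10.98 on the latter. The 2 arrays of a group are therefore not repeat readings of the same RNA. For the Actb control, the 5' probe set lay under the 3' probe set by a difference of -0.50 to -0.11 on replicate 1 and -1.71 to -0.88 on replicate 2 arrays. These measures therefore move with replicate number. T cell markers had a median level of 11.70. All markers with a probe set of a single symbol stayed under 8 on every array for CD8 T cells (2 of 2), B cells (6 of 6), mast cells and basophils (5 of 5) and erythroid cells (2 of 2). The same held for 8 of 9 myeloid and 3 of 4 platelet markers.

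The 33 genes were high in medium and low in TGFb in both genotypes. Their mean was 10.87 and 10.47 on the WT medium arrays of replicates 1 and 2, and 10.05 and 9.27 on the WT TGFb arrays. In STAT3-deficient cells it was 10.86 and 10.67 in medium and 9.92 and 9.52 in TGFb. The medium and TGFb arrays did not overlap in either genotype. With IL-6 the genotypes parted on 1 array: the mean was 10.46 and 9.53 in WT cells and 10.54 and 10.83 in STAT3-deficient cells. With both cytokines the WT arrays gave 9.92 and 10.04, and the STAT3-deficient arrays 10.24 and 10.36. The WT values lay within the span of the WT TGFb arrays, and the STAT3-deficient values between the TGFb and the medium arrays of that genotype. The group means were 10.67 ± 0.28 (SD, n = 2), 9.99 ± 0.66, 9.66 ± 0.55 and 9.98 ± 0.09 for WT cells in medium, IL-6, TGFb and both cytokines. For STAT3-deficient cells they were 10.76 ± 0.14, 10.69 ± 0.20, 9.72 ± 0.28 and 10.30 ± 0.08.

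**Figure D1:**
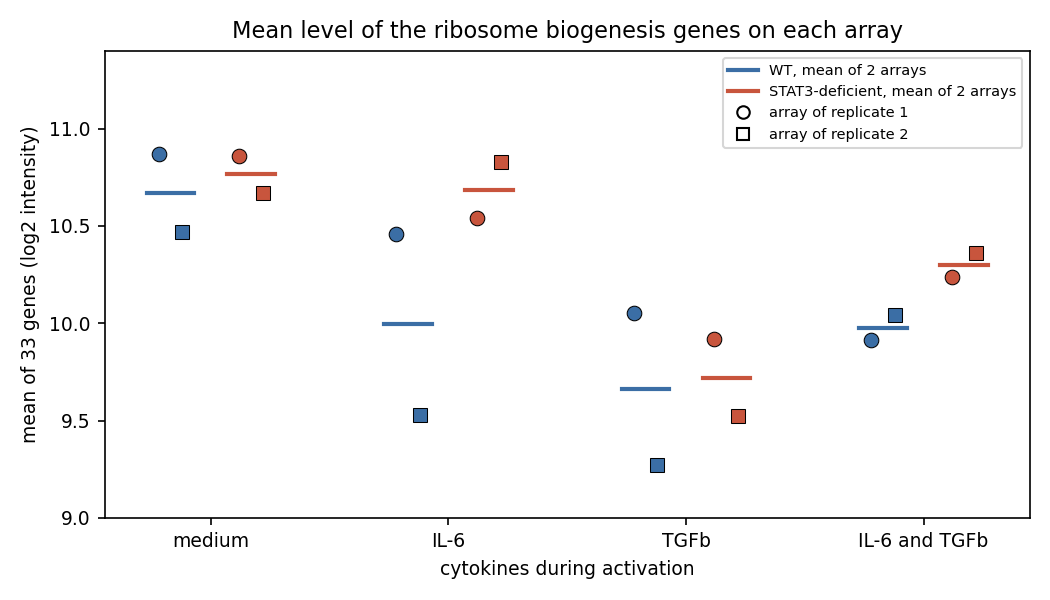
Mean log2 intensity of the 33 genes (y axis) on each of 16 arrays, by cytokine condition (x axis) and genotype (colour); circles are replicate 1, squares replicate 2 and lines the mean of 2 arrays. All 4 TGFb arrays lie under all 4 medium arrays, and the WT IL-6 array of replicate 2 (9.53) lies under the other 3 IL-6 arrays.

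Most of the genes moved together from array to array. On the WT TGFb array of replicate 2 all 33 genes were under their own mean over the 16 arrays, and 23 of them had their lowest value there. On the WT IL-6 array of replicate 2, 32 of 33 were under their mean. In contrast, 32 of 33 were above it on the replicate 1 medium array of either genotype, and 33 of 33 on the STAT3-deficient medium array of replicate 2. The STAT3-deficient IL-6 array of replicate 2 had 31 genes above their mean and held the highest value of 12 genes. Low arrays were found in both replicate numbers under TGFb, but only in replicate 2 of the WT cells under IL-6 alone.

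**Figure D2:**
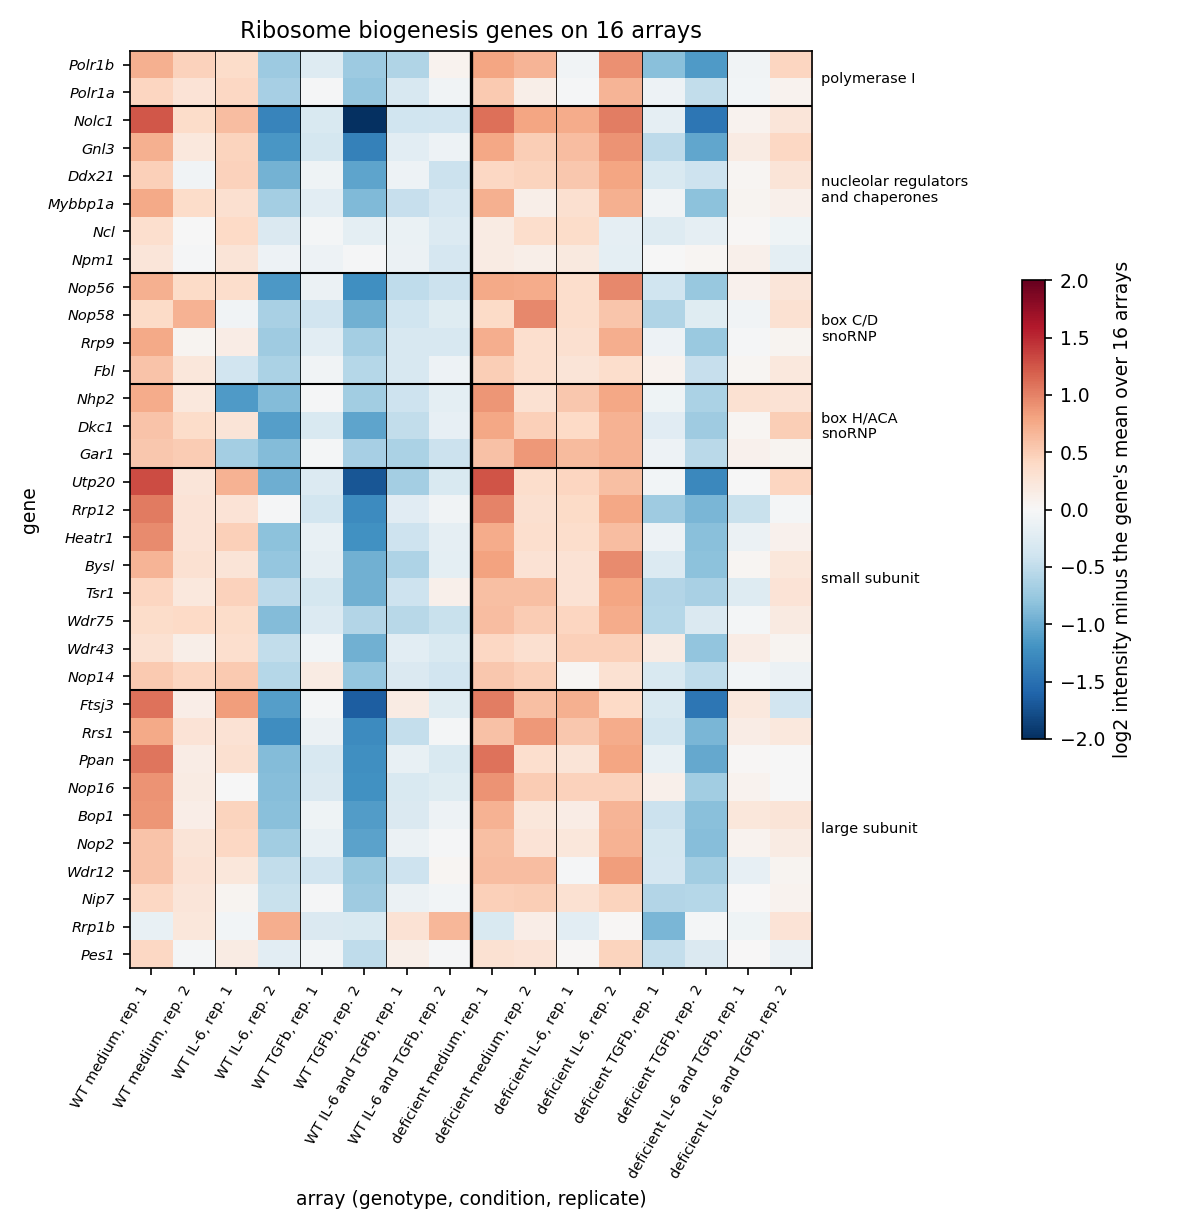
Level of each of the 33 genes (rows, grouped by role) on the 16 arrays (columns), as log2 intensity minus the gene's mean over all arrays; red is above and blue below that mean. TGFb columns are blue in both genotypes for nearly every row, Nolc1 and Utp20 span the widest range, and Ncl and Npm1 stay pale throughout.

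The first comparison asked what TGFb did over all conditions, with 8 arrays against 8. Of the 33 genes 10 fell and none rose with TGFb present, and all 33 had a negative difference, with a median of -0.64 (1.56-fold lower) against -0.01 over all genes tested. Over all genes 3.79% were called lower and 9.25% were called in either direction. With replicate number as a block 23 of the 33 were called, where 16.3% of all genes were. Without both arrays of doubt 2 of the 33 were called. Leaving out single arrays moved the count by over 1.5 times for 11 of the 16. It rose to 27 without the WT IL-6 array of replicate 2 and to 20 without the WT TGFb array of replicate 1. It was 6 without the WT IL-6 array of replicate 1 or the WT array of replicate 2 with both cytokines. It was 3 without the WT medium array of replicate 1, either STAT3-deficient medium array or the STAT3-deficient IL-6 array of replicate 2, and 2 without the WT TGFb array of replicate 2 or the replicate 1 array with both cytokines of either genotype.

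Rrp12, a factor that helps export pre-ribosomal subunits, ranged from 8.33 to 9.38 (median 8.69) on the 8 arrays without TGFb and from 7.09 to 8.31 (median 7.94) on the 8 with it. These ranges did not overlap, which held for 0.361% of all genes in that direction and for no other of the 33. Its change was -1.01 ± 0.18 (SE), with a limma adjusted p of 0.0059. Polr1b, the second largest subunit of RNA polymerase I, ranged from 7.48 to 9.12 (median 8.77) without and from 7.08 to 8.63 (median 7.78) with TGFb (change -0.78 ± 0.20, limma adjusted p = 0.036). Tsr1, a GTPase-like factor of late 40S assembly, lay between 9.82 and 11.13 without and between 9.38 and 10.62 with TGFb (change -0.71, limma adjusted p = 0.0259). Bysl, which works at the same stage, lay between 9.05 and 10.76 and between 8.85 and 10.05 (change -0.70, limma adjusted p = 0.0482).

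The other 6 genes that fell act at several steps. Wdr12, a member of the PeBoW complex of 60S assembly, lay between 9.48 and 10.81 without and between 9.23 and 10.03 with TGFb (change -0.66, limma adjusted p = 0.0274). Mybbp1a, a nucleolar regulator of rRNA transcription, lay between 10.66 and 12.10 and between 10.45 and 11.43 (change -0.66, limma adjusted p = 0.0494). Nop58, a core protein of box C/D particles, lay between 8.73 and 10.34 and between 8.43 and 9.68 (change -0.65, limma adjusted p = 0.018). In all of these genes the groups overlapped, and the lowest array without TGFb was the WT IL-6 array of replicate 2. Wdr75, a factor of early small subunit assembly, lay between 9.13 and 10.74 and between 9.40 and 10.17 (change -0.64, limma adjusted p = 0.0304). Gar1, a box H/ACA protein, and Nip7, a 60S factor, fell by 0.57 and 0.50 (limma adjusted p = 0.0123 and 0.0245).

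TGFb given alone was then set against medium. This comparison over both genotypes, 4 arrays against 4, was added after the values of the arrays had been seen. Of the 33 genes 17 fell and none rose, where 2.33% of all genes were called lower and 4.87% in either direction. The median of the 33 was -1.06 (2.09-fold lower) and that of all genes 0.00. In 30 of the 33 the 4 TGFb arrays lay under all 4 medium arrays, as they did in 10.3% of all genes, and the exceptions were Wdr43, Rrp1b and Npm1. With replicate number as a block 28 of the 33 were called, where 12.6% of all genes were. Without the WT TGFb array of replicate 2 no gene of the 33 passed and the count ranged up to 23 as 1 array at a time was left out; it was 9 without both arrays of doubt, 9 with array weights, 8 after further quantile normalization, and 1 in a fit of only the arrays compared. Leaving out the WT medium array of replicate 1 or 2 gave 3 and 10, the STAT3-deficient medium array of replicate 1 or 2 gave 3 and 4, and the STAT3-deficient TGFb array of replicate 2 gave 4. The median of the 33 stayed between -1.25 and -0.85 over all arrays left out singly, and was -1.15 without both arrays of doubt.

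The difference had 1 sign within each replicate number and genotype. In WT cells the mean over the 33 genes differed by -0.82 within replicate 1 and by -1.19 within replicate 2, with 33 and 32 of 33 genes lower in TGFb. For STAT3-deficient cells these values were -0.95 and -1.14, with 33 and 33 of 33 genes lower. The medians over all tested genes lay between -0.04 and 0.03 in the same pairs of arrays. Tested within 1 genotype, 2 arrays against 2, no gene of the 33 passed in limma in WT cells (26 at an unadjusted p under 0.05, median -1.02) or in STAT3-deficient cells (27 at an unadjusted p under 0.05, median -1.06), where 0.223% and 0.354% of all genes were called. With the block, where 1.51% of all genes were called, Nip7 (-1.07, limma adjusted p = 0.0445) and Gar1 (-1.06, limma adjusted p = 0.0469) passed in STAT3-deficient cells and none in WT cells. Without the STAT3-deficient TGFb array of replicate 1 the median in STAT3-deficient cells was -1.28 and none passed without the block; the block was not run on that subset. The responses of the genotypes were not tested against each other.

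**Figure D3:**
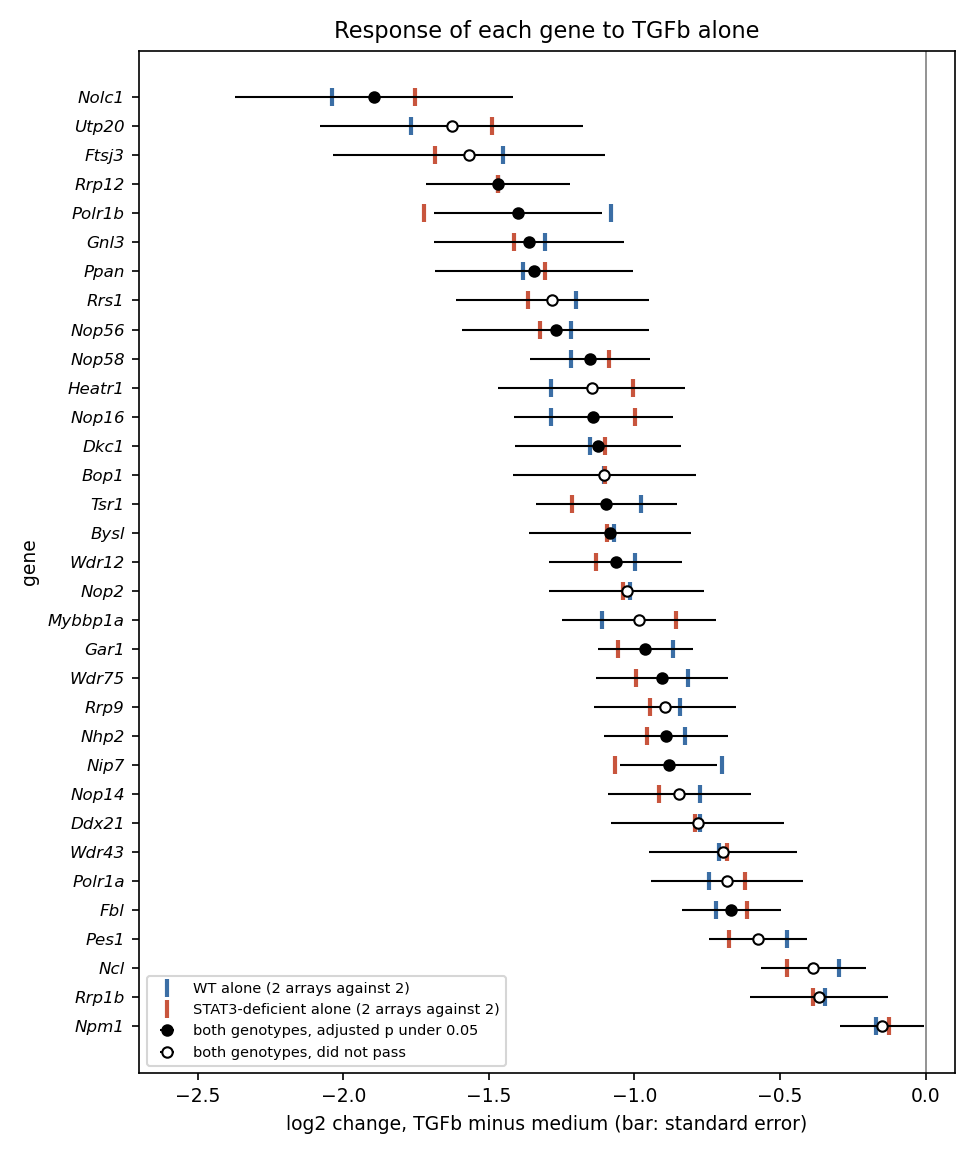
Log2 change from medium to TGFb (x axis) of each of the 33 genes (rows, sorted by change); circles are the change over both genotypes with its standard error, filled where the limma adjusted p was under 0.05, and coloured ticks the change within WT or STAT3-deficient cells. All circles and ticks lie left of 0, from Nolc1 at -1.90 to Npm1 at -0.15.

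By role, RNA polymerase I comes first. Polr1b read 8.92 and 8.66 on the WT medium arrays of replicates 1 and 2 and 9.0 and 8.89 on the STAT3-deficient ones, against 7.94 and 7.48 and 7.37 and 7.08 on the TGFb arrays. It fell by 1.40 ± 0.29 (SE; limma adjusted p = 0.0233). Polr1a, the largest and catalytic subunit, read 9.21 and 9.06 in medium in WT cells, 9.31 and 8.90 in STAT3-deficient cells, and 8.76 and 8.02 and 8.68 and 8.29 in TGFb. Its groups did not overlap either, but its change of -0.68 ± 0.26 did not pass (limma adjusted p = 0.157, and 0.0988 with the block).

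Among the 6 nucleolar regulators and chaperones 2 fell (3 with the block). Nolc1, a chaperone of snoRNPs that links the nucleolus to Cajal bodies, read 11.51 and 10.64 on the WT medium arrays and 11.37 and 11.06 on the STAT3-deficient ones. With TGFb it read 9.97 and 8.10 on the WT arrays, and 10.09 and 8.83 on the others. The drop was the widest of the 33, -1.90 ± 0.48 or 3.72-fold (limma adjusted p = 0.0465), and both replicate 2 arrays were lower than the replicate 1 arrays. Gnl3, the nucleolar GTPase nucleostemin, read 11.31, 10.81, 11.37 and 11.09 in medium and 10.25, 9.25, 10.08 and 9.56 in TGFb, in the order WT replicates 1 and 2, STAT3-deficient replicates 1 and 2 that is kept from here on (change -1.36 ± 0.33, limma adjusted p = 0.0401). Mybbp1a (-0.99, limma adjusted p = 0.0562) and Ddx21 (-0.78, limma adjusted p = 0.152), an RNA helicase of rRNA transcription and processing, did not pass, although their TGFb arrays all lay under their medium arrays.

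The genes of 2 abundant nucleolar proteins varied least on the probe sets used. Ncl, nucleolin, read 13.68, 13.33, 13.50 and 13.69 in medium and 13.29, 13.14, 13.08 and 13.16 in TGFb (change -0.39 ± 0.18, limma adjusted p = 0.243). Npm1, the chaperone nucleophosmin, read 14.01, 13.74, 13.93 and 13.89 in medium and 13.66, 13.75, 13.76 and 13.81 in TGFb, so that the groups overlapped (change -0.15 ± 0.15, limma adjusted p = 0.636). Over all 16 arrays the SD was 0.17 for Npm1 and 0.25 for Ncl, the smallest of the 33, and 0.98 for Nolc1 and 0.85 for Utp20, the largest. The 4 other probe sets of Ncl differed by -0.98 to -0.41 from medium to TGFb, and the other probe set of Npm1 by -0.15. Their SD over the 16 arrays was 0.29 to 0.64 for Ncl and 0.14 for Npm1, so that low variation of Ncl held for its brightest probe set only.

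Of the 4 box C/D genes 3 fell (4 with the block). Nop56, which with Nop58 forms the scaffold of the particle, read 12.36, 12.02, 12.40 and 12.38 in medium and 11.53, 10.41, 11.24 and 10.89 in TGFb (change -1.27 ± 0.32, limma adjusted p = 0.0468). Nop58 read 9.77, 10.08, 9.76 and 10.34 in medium and 8.99, 8.43, 8.78 and 9.13 in TGFb (change -1.15 ± 0.21, limma adjusted p = 0.0131). In both genes the TGFb arrays lay under every medium array. Fbl, fibrillarin, the methyltransferase of the particle, read 12.95, 12.61, 12.87 and 12.71 in medium and 12.31, 11.80, 12.44 and 11.91 in TGFb (change -0.67 ± 0.17, limma adjusted p = 0.0474). Rrp9, a protein of the U3 particle, differed by -0.90 and did not pass (limma adjusted p = 0.058).

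All 3 box H/ACA genes fell. Dkc1, dyskerin, the pseudouridine synthase, fell by 1.13 ± 0.28 (limma adjusted p = 0.0468) and ranged from 10.56 to 12.44 over the 16 arrays. Gar1 read 11.47, 11.44, 11.53 and 11.81 in medium and 10.90, 10.27, 10.84 and 10.39 in TGFb (change -0.96 ± 0.16, limma adjusted p = 0.0117). Nhp2, an RNA-binding protein of the same particle, read 12.63, 12.10, 12.77 and 12.19 in medium and 11.87, 11.20, 11.80 and 11.25 in TGFb (change -0.89 ± 0.21, limma adjusted p = 0.0392). In all 3 genes the TGFb arrays lay under every medium array.

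Of the 8 small subunit genes 4 fell, and all 8 with the block. Rrp12 read 9.38, 8.62, 9.34 and 8.66 in medium and 7.98, 7.09, 7.63 and 7.44 in TGFb (change -1.47 ± 0.25, limma adjusted p = 0.0111). Tsr1, Bysl and Wdr75 fell by 1.10, 1.08 and 0.91 (limma adjusted p = 0.0304, 0.0492 and 0.0451). Utp20, a large scaffold of the small subunit processome, read 10.47, 9.40, 10.42 and 9.51 in medium and 8.89, 7.45, 9.10 and 7.86 in TGFb. Both replicate 1 medium arrays were about 1 log2 unit above the replicate 2 medium arrays, and the change of -1.63 ± 0.45 passed only with the block (limma adjusted p = 0.0631, and 0.0182 with the block). Heatr1, an rRNA transcription and processing factor, Nop14 and Wdr43 differed by -1.15, -0.85 and -0.70 and likewise passed only with the block. Over the 16 arrays Heatr1 ranged from 8.36 to 10.52, Nop14 from 8.47 to 9.78 and Wdr43 from 9.19 to 10.63.

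Of the 10 large subunit genes 4 fell (9 with the block). Ppan, an rRNA-binding factor of early 60S assembly, read 10.57, 9.65, 10.59 and 9.84 in medium and 9.18, 8.27, 9.35 and 8.47 in TGFb (change -1.35 ± 0.34, limma adjusted p = 0.0468). Nop16 read 10.39, 9.65, 10.39 and 10.00 in medium and 9.20, 8.28, 9.60 and 8.80 in TGFb (change -1.14 ± 0.27, limma adjusted p = 0.0401). In both genes the replicate 2 arrays lay under the replicate 1 arrays in each of these groups. Wdr12 and Nip7 fell by 1.06 and 0.88 (limma adjusted p = 0.0273 and 0.0163). Ftsj3, a factor of pre-rRNA processing, ranged from 6.57 to 9.30 over the 16 arrays and differed by -1.57 (limma adjusted p = 0.0776, and 0.0063 with the block). Rrs1, Bop1, Nop2 and Pes1 differed by -1.28, -1.10, -1.03 and -0.58 and passed only with the block. Bop1 and Pes1 form the PeBoW complex with Wdr12, and Nop2 is an rRNA methyltransferase. Over the 16 arrays Rrs1 ranged from 8.87 to 10.99, Bop1 from 8.30 to 10.29, Nop2 from 8.63 to 10.39 and Pes1 from 9.76 to 10.71.

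Rrp1b, a nucleolar 60S factor that also binds chromatin, did not follow the others on the probe set used. Its highest value, 10.86, came from the WT IL-6 array of replicate 2, on which 32 of the 33 genes were under their own mean, and its lowest, 9.22, from the STAT3-deficient TGFb array of replicate 1. Its difference from medium to TGFb was -0.37 ± 0.24 (limma adjusted p = 0.424). The other probe sets of Rrp1b, with mean levels of 8.97 and 9.26, differed by -0.51 and -0.55. Their correlation with the probe set used was 0.16 and 0.74 over the arrays.

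Genes of the same pathway outside the 33 were counted from lists of general knowledge. From medium to TGFb 10 of 42 genes of large subunit assembly fell and none rose (23 with the block, median -0.68), among them Rrp15 (-1.70), Tma16 (-1.35), Rpf2 (-1.26) and Ebna1bp2 (-1.13). Of 46 small subunit genes 4 fell (19 with the block, median -0.55), which were Utp6 (-1.07), Nol10 (-1.02), Mphosph10 (-0.84) and Dimt1 (-0.65). Of 12 genes of snoRNP assembly 3 fell, Znhit6 (-1.66), Ruvbl1 (-1.19) and Shq1 (-1.19), with a list median of -0.53. Of 16 genes of the exosome, the nuclease complex that trims rRNA precursors, 3 fell, Exosc1 (-0.91), Exosc7 (-0.90) and Exosc3 (-0.64), with a list median of -0.46 (6 with the block). Of 18 other genes of the RNA polymerase I machinery none fell (2 with the block, 15 of 18 negative, median -0.34) and 1 rose, Baz2a (0.69, limma adjusted p = 0.0372), a subunit of a complex that silences rRNA genes. Over all genes 2.33% were called lower and 2.54% higher. The counts and medians of these lists were not recomputed with arrays left out.

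MYC is a known activator of ribosome biogenesis genes, and MXD proteins compete with it for its partner MAX. Of 10 tested genes of this network 1 rose with TGFb over all conditions, Mxd4 (1.71 ± 0.31, limma adjusted p = 0.0074), where 5.46% of all genes were called higher. Without both arrays of doubt its change was 1.49 (limma adjusted p = 0.0032). From medium to TGFb alone none of the 10 passed in limma. Myc read 10.67, 11.50, 10.60 and 11.37 in medium and 11.37, 11.51, 10.20 and 11.82 in TGFb, so that the groups overlapped (change 0.19 ± 0.33, limma adjusted p = 0.816). Mxd4 read 7.93, 7.74, 8.07 and 7.50 in medium and 8.73, 9.06, 11.36 and 8.90 in TGFb, with the highest value on the array that stood apart (change 1.70 ± 0.44, limma adjusted p = 0.0516, and 0.0305 with the block). Without that array its change was 1.09 (limma adjusted p = 0.0493), and without both arrays of doubt its limma adjusted p was 0.0583. Mxd1 differed by 1.13 (limma adjusted p = 0.136, and 0.0339 with the block). Of 9 tested p53 targets 1 rose, Trp53inp1 (1.85, limma adjusted p = 0.041), where 2.54% of all genes were called higher. It no longer passed without the STAT3-deficient TGFb array of replicate 1 (1.84, limma adjusted p = 0.0614) or without both arrays of doubt (limma adjusted p = 0.0905). Over all conditions with TGFb present it rose by 1.71 (limma adjusted p = 0.0078), and passed without both arrays of doubt (limma adjusted p = 0.0359).

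Summed over their list, T cell markers read 14.74 to 15.28 in medium and 14.57 to 15.30 in TGFb. Of the NK cell markers 2 of 4, and of the stromal markers 4 of 6, stayed under 8 on every array. The NK cell list read 7.63 to 8.48 in medium and 7.64 to 10.76 in TGFb, with Klrd1 the highest, while Ncr1 stayed between 5.21 and 5.81 on all arrays. The stromal list read 8.83 to 9.51 in medium and 9.04 to 10.25 in TGFb, with Epcam up to 10.18 and Pecam1 up to 9.16 over all 16 arrays, while Col1a1 and Col3a1 stayed between 4.64 and 5.29 and between 3.32 and 4.0. The dendritic cell list read 8.64 to 10.84 in medium and 8.74 to 10.20 in TGFb, with Batf3 up to 10.70 over all arrays, and 5 of its 6 genes stayed under 8 on every array. With both cytokines the NK cell list read 12.11 and 12.87 on the WT and 9.37 and 10.38 on the STAT3-deficient arrays. The stromal list had its highest value, 10.53, on the WT IL-6 array of replicate 2. The part of these genes in the decrease, or in the genotype differences below, was not tested.

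Start regions were compared, since the genes moved together. RefSeq windows of GRCm38.p6 were matched for 28 of the 33 genes, and 250 bases before each start were searched on both strands; Npm1, Fbl, Rrs1, Rrp12 and Bop1 were not matched. Shares beside them are over all 27025 genes with such a window, whether or not they were expressed here. The E-box letters CACGTG, which MYC and MXD proteins can bind, were found in 1 of the 28 genes (3.57%, against 6.86% of those genes). The letters TTCNNNGAA, which STAT proteins can bind, were found in 2 of the 28 (7.14% against 8.13%). The letters CCGGAAG, the core that ETS factors can bind, were found in 6 of the 28 (21.4% against 7.83%), and these 6 stretches of 60 bases are shown on the gene's strand because they hold the only one of the 3 motifs with more than 2 matches. Capitals mark the letters or their reverse complement, which overlapped no match to the other 2 motifs. A match is a description of the sequence only.
Gar1, chr3:129831410-129831469, minus strand: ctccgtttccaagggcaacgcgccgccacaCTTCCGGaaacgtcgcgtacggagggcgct
Heatr1, chr13:12395315-12395374, plus strand: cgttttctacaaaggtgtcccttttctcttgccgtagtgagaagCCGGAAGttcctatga
Nhp2, chr11:51619713-51619772, plus strand: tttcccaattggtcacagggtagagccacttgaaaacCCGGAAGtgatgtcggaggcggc
Nip7, chr8:107056744-107056803, plus strand: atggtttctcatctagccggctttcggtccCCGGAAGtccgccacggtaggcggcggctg
Nolc1, chr19:46075787-46075846, plus strand: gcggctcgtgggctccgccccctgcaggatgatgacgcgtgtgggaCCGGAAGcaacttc
Nop2, chr6:125131815-125131874, plus strand: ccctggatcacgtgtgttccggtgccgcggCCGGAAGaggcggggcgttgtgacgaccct
Of these 6 genes Gar1, Nhp2, Nip7 and Nolc1 fell with TGFb alone and Heatr1 and Nop2 passed only with the block. The Nop2 stretch also holds the E-box letters, in lower case.

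TGFb was also compared in the presence of IL-6. Added to IL-6 it gave no called gene among the 33 in limma (1 at an unadjusted p under 0.05), with a median of -0.19 and 30 of 33 genes lower, and 1.38% of all genes were called. Without both arrays of doubt the median was -0.21. Within replicate number the mean difference was -0.54 and 0.52 in WT cells, and -0.31 and -0.48 in STAT3-deficient cells, so that the WT pairs had opposite signs. The difference between both TGFb effects, tested as an interaction, had a median of 0.80 with 32 of 33 genes positive, but no gene of the 33 passed in limma (17 at an unadjusted p under 0.05, smallest adjusted p 0.954), and 0% of all genes did. Its median was 0.96 without both arrays of doubt. Both comparisons were added after the arrays had been seen. Adding IL-6 to TGFb gave mean differences of 0.32 and 0.83 in STAT3-deficient cells (29 and 32 of 33 genes higher), and of -0.13 and 0.77 in WT cells.

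The combination of IL-6 and TGFb, under which naive cells become Th17 cells, was compared with medium. In WT cells 32 of 33 genes were lower, with a median of -0.77, and in 30 of the 33 both arrays lay under both medium arrays, as in 28.3% of all genes. Gar1 alone passed: it read 11.47 and 11.44 in medium and 10.30 and 10.50 with both cytokines, a fall of 1.06 ± 0.23 (limma adjusted p = 0.0338), where 0.853% of all genes were called lower. No gene of the 33 passed when any of the 4 arrays was left out or when only the groups compared were fitted. In STAT3-deficient cells 32 of 33 genes were lower as well, with a median of -0.50, and none passed in limma (2 at an unadjusted p under 0.05), where 0.138% of all genes were called; without both arrays of doubt the median was -0.36. Within replicate number the mean difference was -0.95 and -0.42 in WT cells and -0.63 and -0.31 in STAT3-deficient cells.

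IL-6 alone gave a response that differed between replicate numbers. In WT cells the mean of the 33 genes differed from medium by -0.41 within replicate 1 (26 of 33 lower) and by -0.94 within replicate 2 (32 of 33 lower). In STAT3-deficient cells it differed by -0.32 within replicate 1 (27 of 33 lower) and by 0.17 within replicate 2 (23 of 33 higher). No gene of the 33 passed in limma in WT cells (7 at an unadjusted p under 0.05, median -0.74) or in STAT3-deficient cells (0 at an unadjusted p under 0.05, median -0.07), where 0.284% and 0% of all genes were called. With the block, where 1.68% of all genes were called, 2 passed in WT cells, Gar1 (-1.29, limma adjusted p = 0.0268, and 0.0533 without the block) and Nhp2 (-1.48, limma adjusted p = 0.0352, and 0.0722 without the block). These comparisons of IL-6 with medium were also added after the arrays had been seen.

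Averaged over TGFb absent and present, IL-6 gave no called gene among the 33 in limma in WT cells (4 at an unadjusted p under 0.05, median -0.17, 1.63% of all genes called). Gar1 was nearest at -0.74 (limma adjusted p = 0.0512, and 0.0295 with the block, where 3.37% of all genes were called). In STAT3-deficient cells none passed in limma (0 at an unadjusted p under 0.05), 31 of 33 genes were higher with IL-6, and the median was 0.26, where 0% of all genes were called. This median was 0.02 within replicate 1 and 0.55 within replicate 2, and 0.42 without both arrays of doubt. Single arrays left out gave 0.18, without the STAT3-deficient IL-6 array of replicate 2, to 0.39, without the TGFb array of replicate 1. The difference between both IL-6 effects, STAT3-deficient minus WT, had a median of 0.43 with 31 of 33 genes positive, yet no gene of the 33 passed the interaction test in limma (2 at an unadjusted p under 0.05, smallest adjusted p 0.142), where 0.354% of all genes did. Its median was 0.22 within replicate 1 and 0.64 within replicate 2, and 0.59 without both arrays of doubt. Leaving out single arrays moved it between 0.11, without the WT IL-6 array of replicate 2 (0.15 without the WT TGFb array of replicate 1), and 0.71, without the WT IL-6 array of replicate 1.

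The genotypes were then compared within each condition. Under IL-6, 2 of the 33 genes were called higher in STAT3-deficient cells, where 0.561% of all genes were called higher and 3.29% in either direction, and both belong to the box H/ACA particle. Gar1 read 10.25 and 10.07 on the WT and 11.57 and 11.63 on the STAT3-deficient arrays, means of 10.16 ± 0.13 (SD, n = 2) and 11.60 ± 0.04. It was 1.44 ± 0.23 (SE) higher, or 2.72-fold (limma adjusted p = 0.0155). Nhp2 read 10.75 and 11.02 on the WT and 12.43 and 12.66 on the STAT3-deficient arrays, means of 10.88 ± 0.20 (SD, n = 2) and 12.55 ± 0.17. It was 1.66 ± 0.30 (SE) higher, or 3.17-fold (limma adjusted p = 0.0212), and its second probe set differed by 1.59. In both genes the WT IL-6 arrays were low and the STAT3-deficient arrays close to the medium level, and the gap was present in both replicate numbers.

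Outside the 33, Nop10, the smallest of the 4 core proteins of the box H/ACA particle, was 1.68 ± 0.34 higher in STAT3-deficient cells (limma adjusted p = 0.0271). Dkc1, the enzyme of the same particle, read 11.92 and 10.56 on the WT and 12.06 and 12.36 on the STAT3-deficient arrays, so that its gap lay in replicate 2. It did not pass (0.97 ± 0.40, limma adjusted p = 0.196). The other probe sets of Dkc1, with mean levels of 9.65 and 9.86, differed by 0.84 and 2.29 between the genotypes and were not tested. Fbl read 11.99 and 11.75 on the WT and 12.63 and 12.73 on the STAT3-deficient arrays, and passed only with the block (0.81 ± 0.24, limma adjusted p = 0.0857, and 0.0379 with the block), where 11.5% of all genes were called. With array weights, in a fit of only the arrays compared, or without either STAT3-deficient IL-6 array, none of the 33 was called.

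For most of the other genes the genotype difference under IL-6 lay in replicate 2. The median of the 33 was 0.69, against -0.03 over all genes, but it was 0.01 within replicate 1 and 1.43 within replicate 2, where 17 and 31 of 33 genes were higher in STAT3-deficient cells. Nolc1 read 10.89 and 8.95 on the WT and 11.02 and 11.29 on the STAT3-deficient arrays, which is no gap in replicate 1 and a wide one in replicate 2 (1.23 ± 0.67, limma adjusted p = 0.311). Polr1b read 8.58 and 7.48 on the WT and 8.13 and 9.12 on the STAT3-deficient arrays, so that its groups overlapped (0.59 ± 0.41, limma adjusted p = 0.414). Polr1a read 9.19 and 8.12 against 8.76 and 9.47 (0.46 ± 0.37, limma adjusted p = 0.482). Ncl read 13.73 and 13.05 against 13.70 and 13.15, and Npm1 14.02 and 13.67 against 13.96 and 13.58. The other probe sets of Ncl differed by -0.30 to 1.12 between the genotypes, and that of Npm1 by 0.08. The STAT3-deficient array of replicate 2 had the lowest 5' minus 3' difference of Actb, -1.71, and the part of RNA quality in this gap was not tested.

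**Figure D4:**
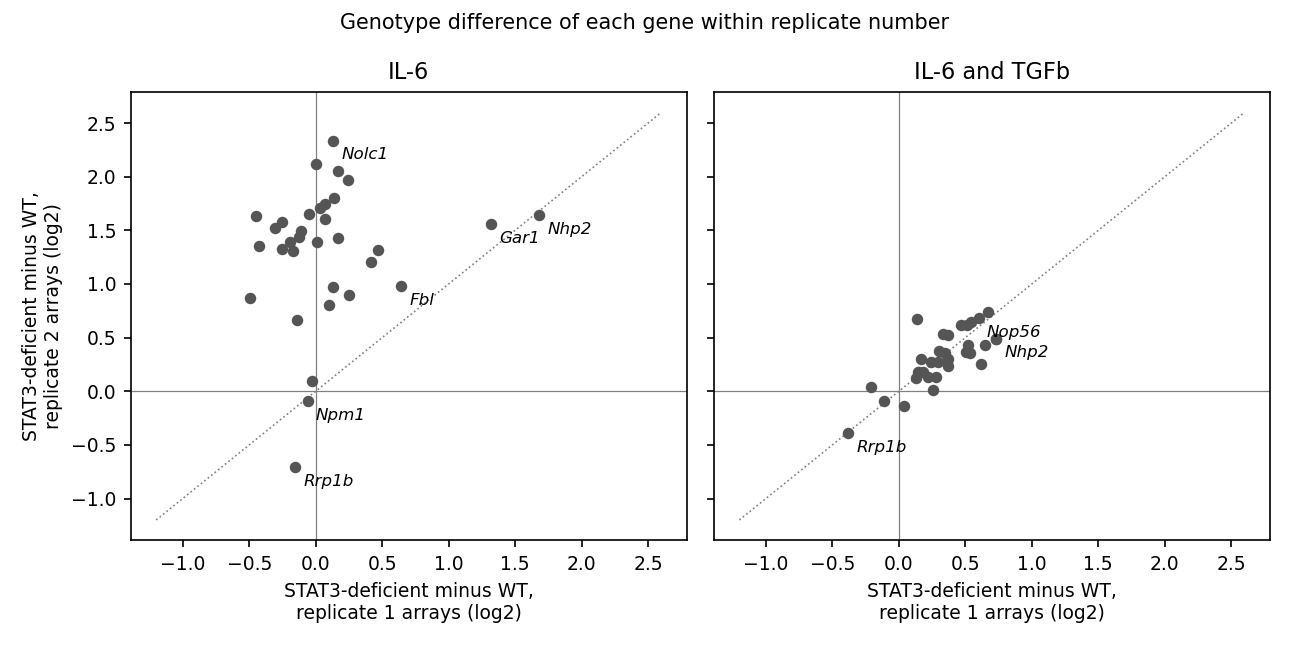
STAT3-deficient minus WT log2 difference of each of the 33 genes within the replicate 1 arrays (x axis) and within the replicate 2 arrays (y axis), under IL-6 (left) and under IL-6 and TGFb (right); the dotted line marks equal differences. Under IL-6 most genes lie near 0 in replicate 1 and between 0.5 and 2.5 in replicate 2, with Gar1 and Nhp2 high in both; under both cytokines the genes lie near the line.

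Under both cytokines the mean genotype difference was alike in both replicate numbers. The mean of the 33 genes was 0.32 higher in STAT3-deficient cells within replicate 1 and 0.31 within replicate 2, with 30 of 33 genes higher in each. In 25 of the 33 both STAT3-deficient arrays lay above both WT arrays, as in 24.5% of all genes. None of the 33 passed in limma (1 at an unadjusted p under 0.05, median 0.34, smallest adjusted p 0.366), where 1.19% of all genes were called, and the median was 0.41 without both arrays of doubt. Gar1, which was nearest, differed by 0.62 and Nhp2 by 0.61.

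Without IL-6 no gene of the 33 was called between the genotypes. Under TGFb the median of the 33 was 0.05 and in medium 0.12, by limma (0 and 0 at an unadjusted p under 0.05), where 0% of all genes were called in either. Under TGFb the mean differed by -0.13 within replicate 1 and 0.25 within replicate 2, and without both arrays of doubt the median was -0.20. Averaged over the 4 conditions, 8 arrays against 8, the median was 0.31 and 32 of 33 genes were higher in STAT3-deficient cells. The median was 0.08 within replicate 1 and 0.54 within replicate 2, and 0.22 without both arrays of doubt. Leaving out single arrays moved it between 0.18, without the WT IL-6 array of replicate 2, and 0.43, without the WT IL-6 array of replicate 1. Gar1 alone passed (0.58 ± 0.12, limma adjusted p = 0.0482), where 0.123% of all genes were called higher and 0.969% in either direction, and Nhp2 passed with the block (0.60 ± 0.15, limma adjusted p = 0.0866, and 0.0352 with the block), where 5.36% of all genes were called. No gene of the 33 passed without both arrays of doubt, with array weights, after further quantile normalization, with no level minimum, or without any of 13 of the 16 arrays taken singly (2 passed without the STAT3-deficient TGFb array of replicate 2).

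Of the other pathway lists under IL-6, in the RNA polymerase I machinery 1 of 18 genes was higher in STAT3-deficient cells, Polr2f (1.47, limma adjusted p = 0.0282), a subunit shared by the nuclear polymerases. In the same list 1 was lower, Taf1b (-0.97, limma adjusted p = 0.0453), a subunit of the rRNA promoter selectivity factor. Of 46 small subunit genes 1 was higher, Fcf1 (1.01, limma adjusted p = 0.0489), and of 42 large subunit and 16 exosome genes none passed (with the block 2 were called higher in each and 1 large subunit gene lower). Of 12 genes of snoRNP assembly 1 was higher, Nop10 (2 with the block). Over all genes 0.561% were called higher and 2.73% lower. The lists had medians of 0.24, 0.37, 0.28, 0.41 and 0.26 for polymerase I, small subunit, large subunit, exosome and snoRNP assembly genes, against -0.03 over all genes. Neither these medians nor the calls, that of Nop10 included, were split by replicate number. They were also not recomputed with array weights or with arrays left out.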

How the data were processed

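Per the submitters' processing notes the authors used RMA, of which no version is given in the sources used here. As deposited, the intensity values are linear whole numbers from 6 to 37243 for 45101 probe sets on 16 arrays, and how they became linear is not given. RMA is meant to equalise the distribution of values between arrays, so levels are relative within an array. The deposited distributions still differed. Their upper quartile (log2) was lowest, 7.7, on the STAT3-deficient and highest, 8.09, on the WT IL-6 array of replicate 1. Log2 was taken with no pseudocount. A single platform symbol was given for 34945 probe sets. Array medians were 66 to 73; the number of arrays limits the precision.

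All arrays were fitted in limma 3.58.1 (R 4.3.3) with 8 group means and two-sided tests, and scripts were tested on simulated data. Same-numbered arrays deviated together in all 28 pairs of groups (r 0.11 to 0.86, median 0.33, across genes), so the block was run as an alternative. Any difference shared by all arrays of a number, such as that in sex-linked genes, gives such correlations. They therefore cannot show that the samples were paired. Replicate numbers come from the titles, which do not say what a number stands for. Further alternatives were normalization, level minimum, array weights, probe sets, the arrays fitted and single arrays left out. The 33 genes, the other lists and the comparisons were chosen with earlier results of these data known, and 7 of 18 comparisons after the values of the arrays were seen. Values on single arrays are given for genes past the threshold (at most 8 a comparison), the 2 most and 2 least variable, and Ncl, Npm1, Fbl, Polr1a and Polr1b; Rrp1b, Dkc1 and the MYC network genes were singled out after their values were seen.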

Additional observations from a re-analysis of the deposited data

Results flagged for a closer look

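Ddx21, the nucleolar RNA helicase, was singled out because its IL-6 response had opposite signs in the genotypes. IL-6 minus medium was -0.01 and -0.88 in WT cells (replicates 1 and 2) and 0.12 and 0.35 in STAT3-deficient cells. The STAT3-deficient change exceeded the WT change by 0.676 (log2). Under IL-6 the genotypes differed by 0.91 on the probe set used and by 0.37 on the other probe set of Ddx21. The difference between the 2 IL-6 responses, without TGFb, was not tested for this gene. No gene of the 33 passed the interaction test averaged over TGFb.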

How the results depend on the processing

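Of 287 recomputed counts of called genes 223 stayed within 1.5 times the reported count. Most of the 287 belonged to comparisons with a reported count of 0, and a 0 that stayed at 0 is among the 223. Counts reported above 0 moved by over 1.5 times in most fits without a single array. Of 543 recomputed changes of single genes that were named 359 stayed on the same side of the threshold, 183 no longer passed and 1 newly passed. None that passed in either fit reversed its direction, and turns of direction in changes that passed in neither were not counted. For TGFb minus medium the count of 17 became 28 with the replicate block, 8 after further quantile normalization, 10 with no level minimum, 9 with array weights, 1 in the fit of only the arrays compared, 9 without both arrays of doubt, and 0 to 23 without single arrays. For TGFb present minus absent the count of 10 became 23 with the block, 2 without both arrays of doubt, and 2 to 27 without single arrays. For the genotypes under IL-6 the count of 2 became 0 with array weights and 0 in the fit of only the arrays compared, and was 0 to 3 without single arrays. For the mean of 4 conditions the count of 1 became 2 with the block, 0 after quantile normalization, 0 with no level minimum, 0 with array weights and 0 without both arrays of doubt, and was 0 to 2 without single arrays. For both cytokines against medium in WT cells the count of 1 became 2 with array weights, 0 in the fit of only the arrays compared, and 0 to 0 without single arrays. IL-6 present minus absent in WT cells, with no called gene, gave 1 with the block, 1 with a level minimum of log2 7, 1 with array weights, 1 with the mean of all probe sets of a gene, and 0 to 1 without single arrays. IL-6 minus medium in WT cells gave 2 with the block, 1 with each array centred on its median and 2 with the mean of all probe sets. TGFb minus medium in STAT3-deficient cells gave 2 with the block, and TGFb added to IL-6 gave 0 to 1 without single arrays. The causes were not tested. The sign of the median of the 33 genes turned in 10 of 287 recomputed values, in comparisons whose reported median lay between -0.19 and 0.12. Leaving out an array left groups of 1, assumed to vary like the other groups.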
